A study of Mus musculus with 12 samples.

Results

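The replication-dependent histone genes lie in clusters and were examined in the male germ cells of the newborn mouse testis, with and without an intact copy of Morc1, a gene known for silencing transposable elements (TEs) in these cells. The members were chosen by name: every gene whose GENCODE M21 symbol starts with Hist1h, Hist2h, Hist3h or Hist4h. The annotation holds 70 such genes, and 38 of them were listed among the 35666 genes of the deposited table. The other 32, which include all 10 genes of the Hist2 cluster, were not analysed here. Of the 38 listed genes, 23 had a mean of at least 10 normalized counts over the 6 libraries and were tested, as were 26005 genes in all.

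Gonocytes, as the male germ cells of this age are called, were isolated on postnatal day 0 from mice carrying the Mvh-Venus transgene, in which a fluorescent reporter marks germ cells. The heterozygous (het) group, Morc1 (+/-), and the knockout (KO) group, Morc1 (-/-), held 3 libraries each, and all 6 came from Mvh-Venus mice. The labels do not say whether a library came from 1 animal or from pooled animals, so p-values measure only the spread between these libraries, which may be technical. Libraries of postnatal day 3 were not analysed here.

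Core histones H2A, H2B, H3 and H4 form the nucleosome, and the linker histone H1 binds the DNA between nucleosomes. Genes of the clusters are transcribed mainly in S phase, and most of their mRNAs end in a conserved hairpin, bound by SLBP, in place of a poly(A) tail. Gonocytes around birth are arrested outside the mitotic cycle. The libraries were made with a kit that primes cDNA from poly(A), so a histone level here is a level of reads captured that way and not of all histone mRNA. Some clustered genes also give polyadenylated transcripts in cells that do not divide. Hist1h1t, Hist1h2aa and Hist1h2ba code for the testis variants H1t, TH2A and TH2B, which are best known from spermatocytes.

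The hairpin was searched in the GENCODE M21 transcripts as a perfect stem of 6 bases starting with GG around a loop of 4 bases starting with TT. It was found in 29 of the 38 listed genes and in 15 of the 32 that were not listed. The longest annotated transcript had a median of 625 bases in listed genes and 481 in the others. A model that ends early cannot show the hairpin, so these counts describe the annotation. The following 26-base stretches of GRCm38 transcripts are shown because they cover the SLBP target of members that the results turn on, with the hairpin in capitals.
Hist3h2ba: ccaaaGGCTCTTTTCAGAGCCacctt
Hist3h2a: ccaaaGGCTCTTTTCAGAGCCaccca
Hist1h1c: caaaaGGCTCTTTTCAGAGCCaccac
Hist1h1t: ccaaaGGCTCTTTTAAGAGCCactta
Hist1h4j: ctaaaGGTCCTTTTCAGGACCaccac
Hist1h4i: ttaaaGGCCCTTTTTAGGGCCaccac
The hairpin shown for Hist3h2ba occurred letter for letter in 17 of the 38 listed genes, and H1t and the H4 genes shown carried other letters in the stem or loop. Annotated transcripts often ran on past the hairpin. Of the 19 tested genes with a hairpin, 15 had more than 100 transcript bases after it (median 369), against 3 of the 10 listed but untested genes with a hairpin (median 48). In Hist3h2a 1643 bases followed the hairpin and in Hist3h2ba 169. The letters AATAAA, a polyadenylation signal, lay within the last 50 bases of an annotated transcript in 9 of the 38 listed genes. Hist1h2bc, Hist1h2aa, Hist1h2ba and the pseudogene Hist3h2bb-ps had no hairpin in their annotated transcripts. The models of Hist1h2aa and Hist1h2ba are only 390 and 384 bases long. Whether the mRNAs of these testis variants lack the hairpin was not analysed here.

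Many of these genes are near-identical copies, so reads may have been split between them or left out, and the handling of reads with several matches is not given in the sources used here. Over windows of 50 bases, a median of 39.15% of a listed gene's windows also occurred in another gene, against 85.66% for the genes that were not listed. The split between copies is uncertain for every member with many shared windows, such as Hist1h2ag with 78.9%.

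Morc1 itself checked the labels, with 7248, 7485 and 4126 normalized counts in het and 1360, 1343 and 1794 in KO. Each library held 28363683 to 32816861 gene reads. The germ cell markers Ddx4 and Dazl were high in every library, at no less than 17605 and 48158 normalized counts. Of the 10 germ cell markers, Nanos2 and Nanos3 were the lowest. Nanos2 read 17.2, 16.4 and 20.5 in het and 40.6, 47.5 and 16.7 in KO. Nanos3 read 87.7, 94.7 and 56.6 in het and 58.4, 488 and 87.2 in KO. Het library 3 stood apart in Leydig cell markers, whose 5 genes summed to 24921 normalized counts there and to 510 to 1079 elsewhere. The 9 Sertoli cell markers summed to 25255, 18182 and 38327 in het and to 13195, 15156 and 18658 in KO. None of the 9 was called, and 4 (Clu, Amh, Dhh and Sox9) had an unadjusted p under 0.05 and lay lower in every KO library. Of all tested genes, 2.44% were lower at that unadjusted p, and 5.57% had every KO library below every het library. The part of these other cell types in the histone results was not tested. In bulk samples, fewer cells of a type and less RNA per cell cannot be told apart.

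The histone reads were few: the 38 genes together made up 0.0032% to 0.0127% of all gene values in a library. Their summed level was 1187, 1006 and 1907 normalized counts in het against 4014, 3457 and 3151 in KO, so every KO sum was above every het sum, with a ratio of 2.59 (1.77 without Hist1h2bc). Hist1h2bc, a gene for the core histone H2B, was the only member that passed the test, and it rose. Calls used limma on log2(normalized count + 1) with Benjamini-Hochberg adjustment over all 26005 genes, at an adjusted p under 0.05. Thus 1 of the 23 tested members was called higher, where 0.431% of all tested genes were, and 0 were called lower, where 0.0423% were. Fold changes below are limma log2 differences of KO over het on that scale, with their standard error (SE). The added 1 shrinks changes of low genes, while a library at 0 can enlarge them. Hist1h1a, with a KO library at 0, had a log2 fold change of -1.41 but a ratio of means of 0.93.

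At an unadjusted p under 0.05, 8 members were higher in KO (4.42% of all genes were) and 1, Hist1h1d, was lower (2.44% of all genes were). By edgeR with TMM 1 member was called higher (0.465% of all genes were) and 0 lower (0.0308%). By DESeq2 3 were called higher (1.54% of all genes were) and 0 lower (0.25%). The median log2 fold change of the 23 members was 0.88, beside -0.016 over all tested genes, and 18 of the 23 were above 0, as were 48.4% of all tested genes. Every KO library lay above every het library in 9 of the 23 and below in 0, against 7.17% and 5.57% of all tested genes. Among all 38 listed members the same held for 13 and 0, against 7.22% and 5.41% of all listed genes. These counts are descriptions: 4 of the 23 (Hist3h2bb-ps, Hist1h4j, Hist1h1t and Hist1h2ag) had a het mean under 10 and entered the test only through their KO libraries. Of the 15 listed but untested members, 11 had a higher mean in KO than in het. No listed gene held fewer than 10 reads over the 6 libraries, so being listed can also rest on a single group. Hist1h2bf and Hist1h4h, both among the 13, had het means of only 0.32 and 0.95, beside KO means of 4.63 and 13.1. Hist1h2bk leaned the other way, with a het mean of 2.59 and a KO mean of 0.69. The 13 and the 11 are therefore descriptions too. Among the 19 tested members with a het mean of at least 10, the libraries were separated in 6. The share over all genes with such a het mean was not analysed here, so this count has no background beside it.

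**Figure D1:**
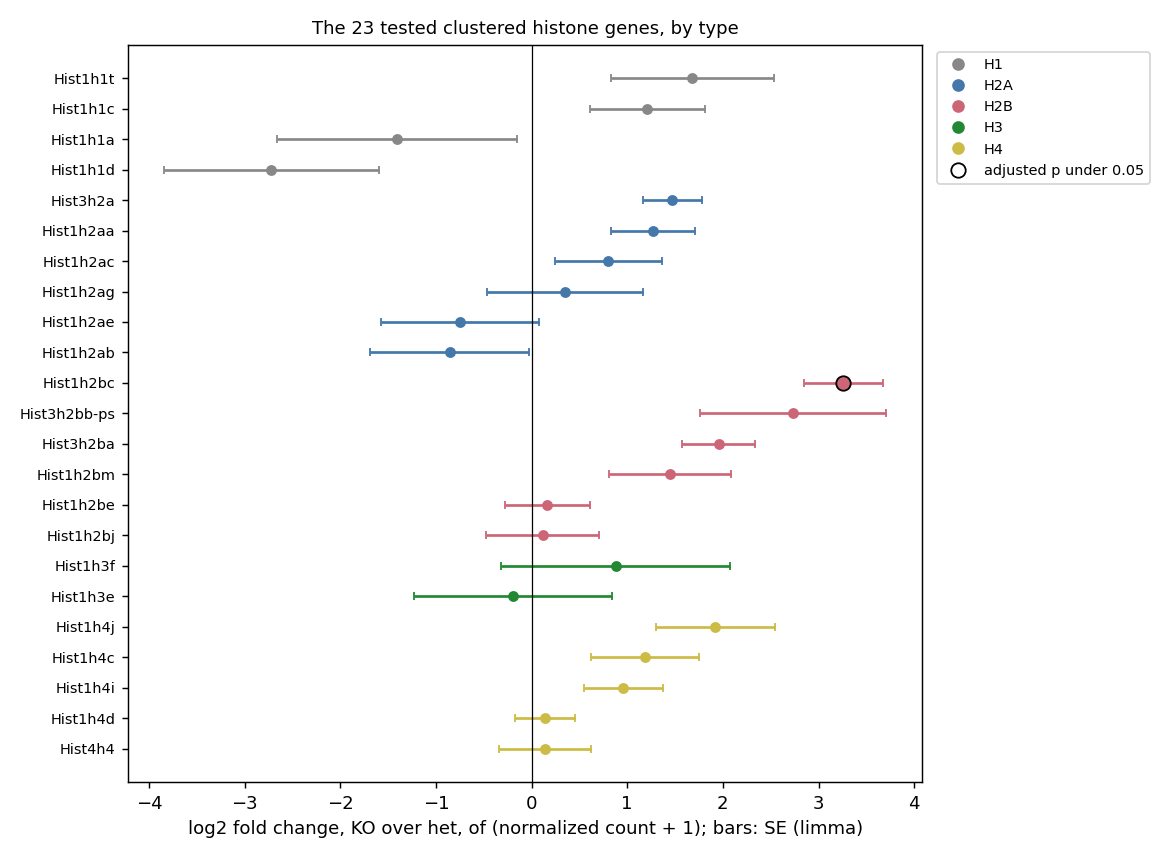
Log2 fold change, KO over het, of the 23 tested histone genes (x axis, limma on log2 of normalized count + 1; bars, SE), grouped and coloured by histone type; the ringed point passed the adjusted threshold. Hist1h2bc sits at 3.26 and Hist1h1d, the lowest, at -2.72; 18 points lie right of 0.

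The promoter stretches of the genes with the clearest differences, and of the 2 testis variants that were tested, are shown first. Each is the 250 bases before the RefSeq start on GRCm38.p6, written in the direction of the named gene, with capitals on every match, on either strand, to the 4 patterns searched. These were CCAAT (the pattern of NF-Y sites), the TATA box pattern TATAAA, the octamer pattern ATTTGCAT, and a pattern known from H1 promoters, AAACACA. Matches to different patterns can overlap at their ends. Hist1h2bc has no entry of its own in the RefSeq promoter table. Hist1h2ac, an H2A gene, is transcribed away from Hist1h2bc with 250 bases between the annotated starts, so the stretch covers most of the interval between both genes and the first bases of Hist1h2bc.
Hist1h2ac, chr13:23683960-23684209, minus strand: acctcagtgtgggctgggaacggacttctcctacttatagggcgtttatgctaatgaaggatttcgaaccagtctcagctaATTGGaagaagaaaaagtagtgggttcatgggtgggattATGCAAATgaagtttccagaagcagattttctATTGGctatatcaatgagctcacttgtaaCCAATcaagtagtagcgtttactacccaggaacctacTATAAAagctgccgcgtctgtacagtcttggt
Hist3h2ba, chr11:58948661-58948910, plus strand: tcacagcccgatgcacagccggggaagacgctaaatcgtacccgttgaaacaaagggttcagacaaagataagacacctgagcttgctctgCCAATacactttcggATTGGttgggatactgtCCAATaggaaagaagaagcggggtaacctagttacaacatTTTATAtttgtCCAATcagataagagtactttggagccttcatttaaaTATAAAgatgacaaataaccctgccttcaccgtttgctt
Hist3h2a, chr11:58954435-58954684, plus strand: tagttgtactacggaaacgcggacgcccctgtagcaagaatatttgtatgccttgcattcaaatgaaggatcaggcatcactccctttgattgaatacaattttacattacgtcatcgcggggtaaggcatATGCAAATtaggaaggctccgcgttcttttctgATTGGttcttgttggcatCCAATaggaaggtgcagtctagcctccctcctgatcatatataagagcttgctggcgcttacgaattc
Hist1h2aa, chr13:23934187-23934436, plus strand: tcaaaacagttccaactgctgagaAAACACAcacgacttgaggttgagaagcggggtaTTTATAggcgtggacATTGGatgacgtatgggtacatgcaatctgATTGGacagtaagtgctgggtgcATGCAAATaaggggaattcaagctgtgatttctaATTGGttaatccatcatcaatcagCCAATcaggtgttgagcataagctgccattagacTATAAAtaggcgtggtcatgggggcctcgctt
Hist1h1t, chr13:23695561-23695810, plus strand: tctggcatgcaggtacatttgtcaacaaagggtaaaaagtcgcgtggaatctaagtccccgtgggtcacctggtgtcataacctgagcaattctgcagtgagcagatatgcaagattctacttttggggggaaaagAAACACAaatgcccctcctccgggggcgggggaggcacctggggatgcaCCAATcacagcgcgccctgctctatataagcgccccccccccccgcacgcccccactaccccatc
Over windows of 300 bases (250 before to 50 after the start), CCAAT occurred on either strand in 85.3% of the 34 windows of listed members and in 37.4% of all 32851 promoters. TATAAA occurred in 55.9% against 13.6%, ATTTGCAT in 32.4% against 1.74%, and AAACACA in 20.6% against 7.18%. Over all 62 windows of members, listed or not, types differed in their letters. CCAAT was in every window of H1, H2A, H2B and H3 genes but in 3 of 12 of H4 genes. ATTTGCAT was found in 7 of 17 H2A and 7 of 17 H2B windows and in 0 of the other types, and AAACACA in 5 of 6 H1 windows. Windows of neighbouring H2A and H2B genes transcribed away from each other can overlap. The same site is then counted for both genes, as for ATTTGCAT at Hist1h2ae and Hist1h2bg, so the windows are not all separate sequences. A match is a description of letters and not of a bound site.

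Hist1h2bc (ENSMUSG00000018102) lies on the plus strand at chr13:23684199-23692908. It read 120, 86.0 and 286 normalized counts in het and 1743, 1123 and 1352 in KO. Every KO library lay above every het library, and the highest het value was in het library 3. The mean was 164 ± 107 (SD, n = 3) in het and 1406 ± 314 (SD, n = 3) in KO, a ratio of 8.58. The log2 fold change was 3.26 (SE 0.41), and the adjusted p from limma with Benjamini-Hochberg was 0.0101.

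The call was lost without the mean trend in limma's variance (adjusted p = 0.0705), without KO library 1 (0.0970) and without KO library 3 (0.0889), while the log2 fold change stayed between 2.89 and 3.75 when any library was left out. Without het library 3, the library with Leydig markers, it was 3.75 with a limma adjusted p of 0.00187. Adjusted p-values were 0.0170 by edgeR with TMM and 4.44e-11 by DESeq2.

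Hist1h2bc is 1 of 2 listed members annotated with more than 1 exon. The transcript has 2 exons of 423 and 733 bases around an intron of 7554 bases, and the stop codon lies 9 bases before the end of the first exon, so the second exon (23692176 to 23692908) is 3′ UTR. Of 1107 windows of 50 bases, 325 also occurred in other histone members, all in the first exon, and 670 of the 684 windows of the second exon occurred in no other gene. The gene table gives no split of its reads by exon, so how many came from either exon was not analysed here. Per kilobase of exon, its mean level was 142 normalized counts in het, under the 163 of the H4 gene Hist1h4d, and 1216 in KO, the highest of the listed members there. Its share of the summed histone values was 10.1%, 8.54% and 15.0% in het against 43.4%, 32.5% and 42.9% in KO.

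**Figure D2:**
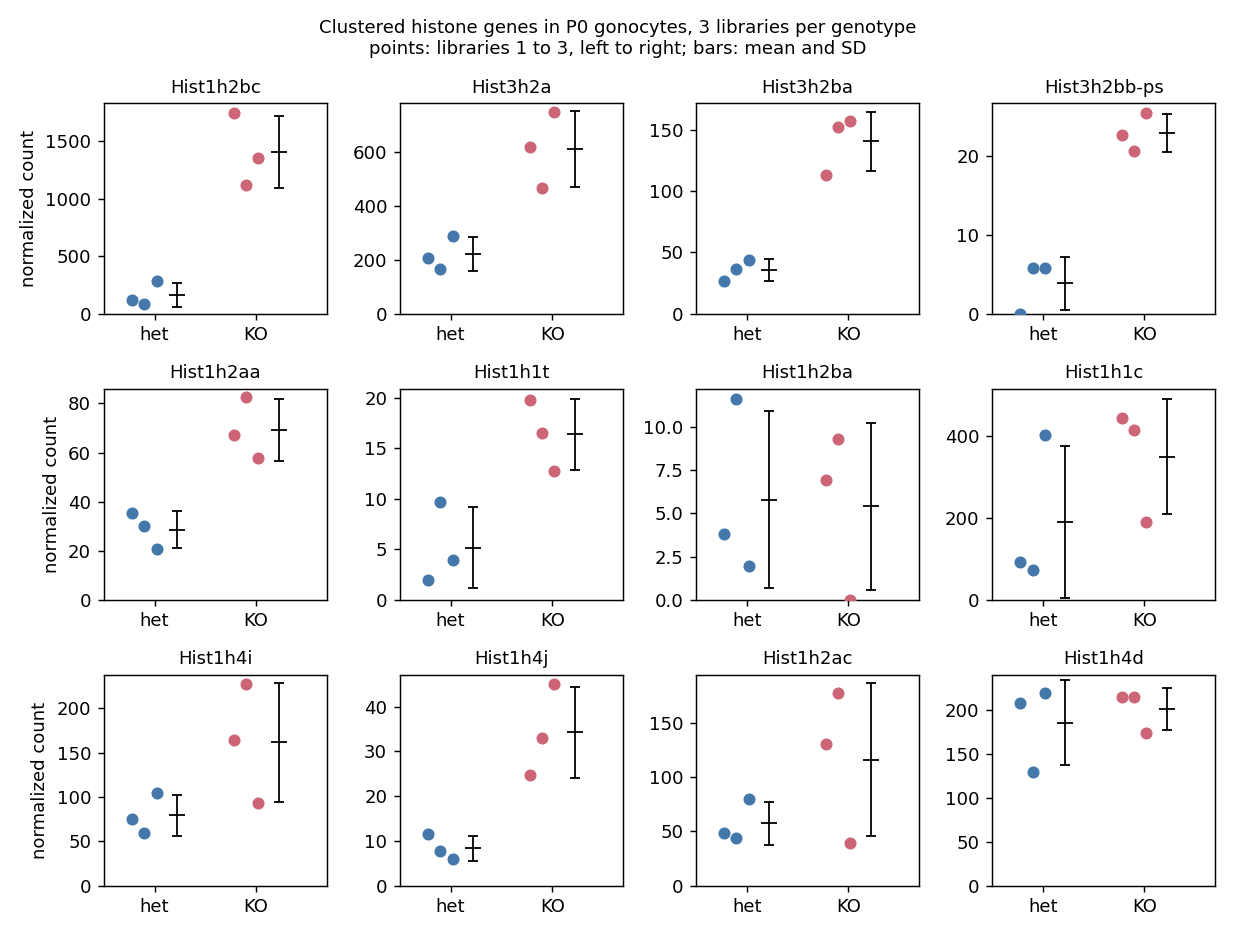
Normalized counts (y axis, linear, scale differs by panel) of 12 clustered histone genes in the 3 het (blue) and 3 KO (red) libraries; black bars give the mean and SD. Hist1h2bc, the Hist3 genes, Hist1h2aa, Hist1h1t and Hist1h4j show KO points above all het points, while Hist1h2ba, Hist1h1c, Hist1h4i, Hist1h2ac and Hist1h4d overlap.

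The Hist3 cluster on chromosome 11 holds 3 members, each with all KO libraries above all het libraries. None was called by limma. Hist3h2ba, an H2B gene (ENSMUSG00000056895, chr11:58948920-58949533, plus strand), read 26.7, 36.7 and 43.9 normalized counts in het and 113, 152 and 157 in KO. Its log2 fold change was 1.96 (SE 0.38; limma adjusted p = 0.0680; DESeq2 adjusted p = 0.000450). Thus DESeq2 called it and limma did not.

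Hist3h2a, an H2A gene (ENSMUSG00000078851, chr11:58954685-58956830, plus strand), read 209, 166 and 290 normalized counts in het and 618, 468 and 749 in KO. Its log2 fold change was 1.47 (SE 0.30; limma adjusted p = 0.0876; DESeq2 adjusted p = 0.000769). Its model overlaps Trim17 on the same strand, whose own log2 fold change was -0.14 with a limma unadjusted p of 0.73. Reads of the overlap may have been assigned to either gene or to none.

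Hist3h2bb-ps, annotated as a processed pseudogene of H2B, starts 172 bases from Hist3h2a and runs the other way. It read 0, 5.80 and 5.85 normalized counts in het and 22.8, 20.7 and 25.5 in KO, with a log2 fold change of 2.73 (SE 0.97; limma adjusted p = 0.539). All its het values were under 10 and it entered the test only through its KO values. The 3 genes summed to 236, 209 and 339 normalized counts in het and to 754, 641 and 931 in KO, a ratio of 2.97 that was not tested.

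Core H2B genes as a type showed 6 of 6 tested members above 0, with a median log2 fold change of 1.70. Among the 6, Hist3h2bb-ps had a het mean under 10 and entered the test only through its KO values. The 12 listed H2B genes summed to 240, 226 and 423 normalized counts in het and to 2023, 1429 and 1653 in KO, a ratio of 5.74. Most of that sum in KO came from Hist1h2bc. Without it the other 11 summed to 120, 140 and 138 in het and to 280, 306 and 301 in KO, a ratio of 2.23, still with no overlap between the groups. Hist3h2ba had the largest difference among the 11. Its mean was 35.8 in het and 140 in KO, beside 133 and 296 for the 11 together.

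Among the single H2B genes, Hist1h2bm read 20.0, 11.6 and 5.85 in het and 29.7, 26.9 and 42.1 in KO (log2 fold change 1.45, SE 0.64; limma adjusted p = 0.707). Hist1h2be, which overlaps Hist1h1e on the same strand, read 42.9, 28.0 and 43.9 in het and 51.5, 38.2 and 38.2 in KO (log2 fold change 0.17, SE 0.45). Its groups overlapped. Hist1h2bg, just under the minimum with a mean of 8.62, read 1.91, 2.90 and 13.7 in het and 7.92, 16.5 and 8.82 in KO.

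Of 6 tested H2A genes, 4 were above 0 and 2 below, with a median log2 fold change of 0.58. Among the 4, Hist1h2ag had a het mean under 10 and entered the test only through its KO libraries. Their sum over 8 listed genes was 371, 335 and 577 in het and 910, 912 and 875 in KO, a ratio of 2.1. Hist3h2a supplied the largest share of it. Hist1h2ac, the divergent neighbour of Hist1h2bc, read 48.6, 43.5 and 80.0 in het and 131, 178 and 39.2 in KO. KO library 3 lay below all het libraries, and the log2 fold change was 0.80 (SE 0.56; limma adjusted p = 0.875), or 1.45 without that library. Hist1h2ae read 46.7, 65.7 and 141 in het and 63.3, 136 and 9.80 in KO (log2 fold change -0.75, SE 0.83), with wide overlap, and the log2 fold change was 0.29 without KO library 3. Hist1h2ag, just above the minimum, read 4.77, 10.6 and 11.7 in het and 6.93, 21.7 and 8.82 in KO (0.35, SE 0.82), and Hist1h2ab had a log2 fold change of -0.86 (SE 0.83). None of these 3 differences exceeded the spread between libraries.

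H4 genes were above 0 in 5 of 5 tested, with a median of 0.96. The 8 listed genes summed to 362, 256 and 368 in het and to 531, 562 and 410 in KO, a ratio of 1.52 with no overlap. Hist1h4j read 11.4, 7.73 and 5.85 in het and 24.7, 33.1 and 45.1 in KO (log2 fold change 1.92, SE 0.62; limma adjusted p = 0.441). Its groups were separated, but its het mean was under 10, so it counts among the 5 only through its KO values. Hist1h4i read 75.3, 58.9 and 104 in het and 164, 227 and 93.1 in KO (0.96, SE 0.41; limma adjusted p = 0.695), and KO library 3 fell among the het values. Hist1h4c read 14.3, 20.3 and 11.7 in het and 54.4, 27.9 and 29.4 in KO (1.19, SE 0.56; limma adjusted p = 0.770), with the groups separated. By contrast, the H4 genes Hist1h4d and Hist4h4 overlapped. Hist4h4, the only gene of its cluster on chromosome 6, had a log2 fold change of 0.14 (SE 0.48). Hist1h4d read 208, 129 and 218 in het and 215, 214 and 173 in KO (0.15, SE 0.31). Hist1h4h, just under the minimum with a mean of 7.04, read 2.86, 0 and 0 in het and 11.9, 20.7 and 6.86 in KO.

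H3 genes gave low sums. Their 6 listed members summed to 78.2, 36.7 and 19.5 in het and to 57.4, 42.4 and 11.8 in KO, a ratio of 0.83 with overlap. The ratio was 1.32 without het library 1 and 1.11 without KO library 3. Only 2 were tested: Hist1h3f with a log2 fold change of 0.88 (SE 1.20) and Hist1h3e with -0.20 (SE 1.04). Hist1h3f read 20.0, 11.6 and 0 in het and 16.8, 12.4 and 5.88 in KO, and Hist1h3e read 37.2, 15.5 and 1.95 in het and 20.8, 7.23 and 5.88 in KO. Both pairs of groups overlapped, and both log2 fold changes turned sign when a library was left out: Hist1h3f was at -0.46 without het library 3, and Hist1h3e at 0.62 without het library 1. No difference in H3 was detectable at this depth.

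**Figure D3:**
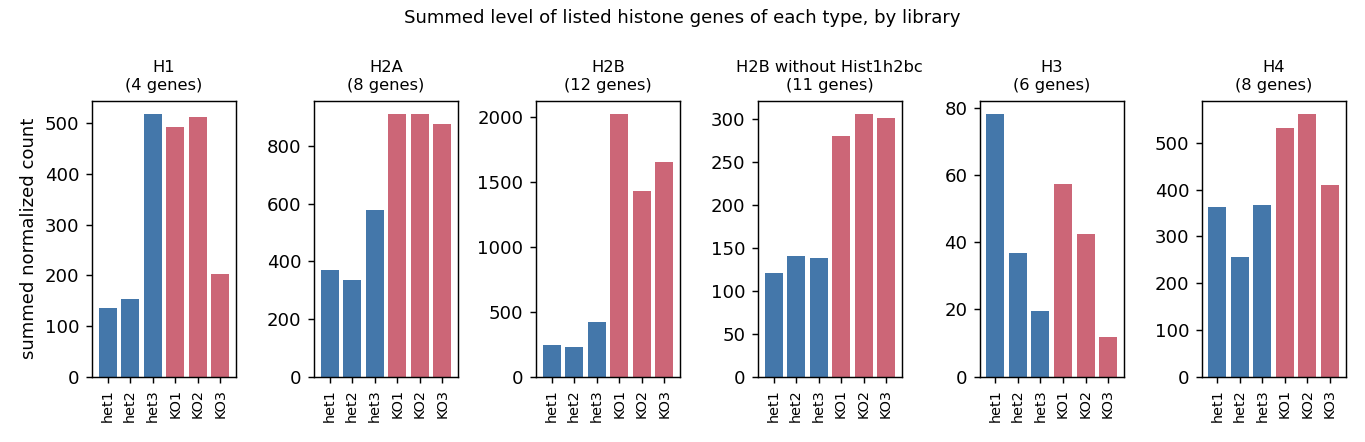
Summed normalized counts of the listed members of each type (panels; bars start at 0; scales differ) in each het (blue) and KO (red) library. H2A, H2B and H4 sums are higher in every KO library than in every het library, with ratios of 2.1, 5.74 and 1.52; H1 and H3 overlap.

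No linker gene was called, and 2 of 4 tested lay above 0 and 2 below. Of those above 0, Hist1h1t had a het mean under 10 and entered the test only through its KO values. The 4 listed H1 genes summed to 135, 153 and 519 in het and to 492, 511 and 202 in KO (ratio 1.49), and the groups overlapped, with het library 3 high and KO library 3 low. The ratio was 2.79 without het library 3. It also rose without KO library 3, and it fell when any other library was left out. Hist1h1c, the somatic linker H1.2 gene, read 93.4, 73.4 and 404 in het and 445, 415 and 189 in KO (log2 fold change 1.21, SE 0.60; limma adjusted p = 0.789). Het library 3, where the Leydig markers were high, had more than 4 times the reading of the other het libraries, and without it the log2 fold change was 1.97 (limma adjusted p = 0.129). Hist1h1d read 17.2, 46.4 and 77.0 in het and 8.91, 22.7 and 0 in KO (log2 fold change -2.72, SE 1.12; limma adjusted p = 0.676). The groups overlapped, KO library 3 was at 0, and without that library the log2 fold change was -1.41. Hist1h1a also had a KO library at 0 and read 22.9, 23.2 and 34.1 in het and 17.8, 56.8 and 0 in KO (-1.41, SE 1.25).

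Of the testis variants, Hist1h2aa and Hist1h1t were higher in every KO library but neither was called. Hist1h2aa, the TH2A gene (chr13:23934462-23934851, plus strand), read 35.3, 29.9 and 20.5 in het and 67.3, 82.7 and 57.8 in KO. Its log2 fold change was 1.27 (SE 0.44; limma adjusted p = 0.502). Hist1h1t, the H1t gene (chr13:23695814-23696725, plus strand), read 1.91, 9.66 and 3.90 in het and 19.8, 16.5 and 12.7 in KO (1.68, SE 0.85; limma adjusted p = 0.799). All KO values of Hist1h1t were above all het values, though its het mean was under 10. Hist1h2ba, the TH2B gene, had too low a mean for the test and read 3.81, 11.6 and 1.95 in het and 6.93, 9.30 and 0 in KO, with overlap. The 3 variants summed to 41.0, 51.2 and 26.3 in het and to 94.0, 108 and 70.5 in KO, a ratio of 2.30 that was not tested. A list of 10 other genes spanned entry into meiosis (such as Stra8), spermatocytes (such as Sycp1) and spermatids (such as Tnp1). All but Prm1 and Prm2 were tested, so 8, with 0 called in either direction and 0 with an unadjusted p under 0.05. The median log2 fold change was -0.083. Every KO library lay above every het library for 1 of the 8, Meiob (0.62, SE 0.29, limma adjusted p = 0.762), and below for 0.

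Along the Hist1 cluster, members above and below 0 stood near each other. The H2A and H2B genes stand in 14 head-to-head pairs with 172 to 305 bases between starts, of which 3 had both genes tested. The pairs had log2 fold changes of 2.73 for Hist3h2bb-ps and 1.47 for Hist3h2a, of 0.35 for Hist1h2ag and 0.12 for Hist1h2bj, and of 0.80 for Hist1h2ac and 3.26 for Hist1h2bc. In the last pair Hist1h2bc was called and its neighbour was not, and the difference between the 2 genes was not tested.

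**Figure D4:**
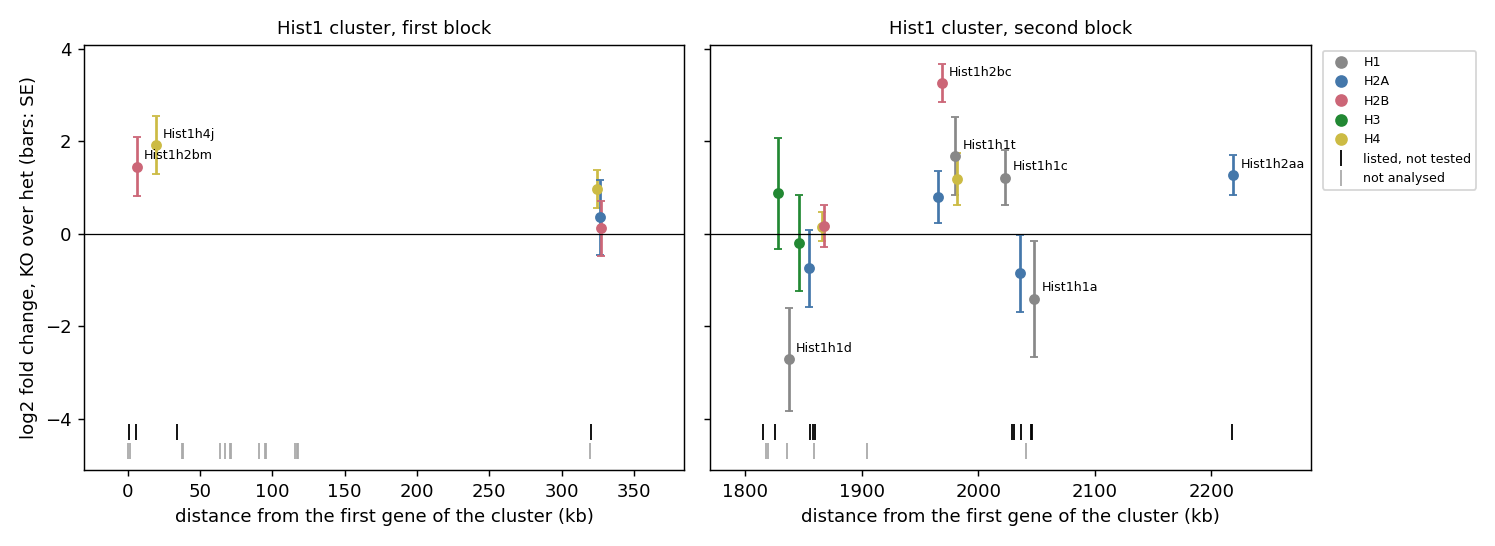
Log2 fold change (y axis, KO over het; bars, SE) of tested Hist1 members against distance from the first gene of the cluster (x axis, kb), in its 2 blocks; ticks below mark listed but untested and unanalysed genes. Hist1h2bc at 3.26 stands above its neighbours, and Hist1h1d at -2.72 below its own.

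Transposable elements next to the clusters were not called. Of the TE copies within 10 kb of a listed member, 49 were listed and 16 tested, with 0 called higher (15.6% of all 49781 tested copies were) and 0 lower (0.735%), and 1 had an unadjusted p under 0.05, against 25.6% of all copies. Of the 16, 5 had a het mean under 10 and 2 a KO mean under 10, so they entered the test through the other group alone. The copy with the unadjusted p lay at chr13:22047532-22047969 near Hist1h2bj, read 8.44, 1.12 and 1.92 in het and 16.2, 23.2 and 16.3 in KO (log2 fold change 2.31, SE 0.86; limma adjusted p = 0.101), and was among the 5 that entered the test only through their KO values. Within 50 kb, 109 were listed and 29 tested, with 0 called. The median log2 fold change was 0.36 within 10 kb and -0.068 within 50 kb, beside 0.028 over all tested copies.

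No gene of the lists for making or handling histone mRNA and protein was called (0.431% of all tested genes were called higher and 0.0423% lower). Of 28 listed genes for histone mRNA processing and histone gene transcription, all 28 were tested, 0 were called, and the median log2 fold change was 0.086. Slbp, whose product binds the hairpin, read 10637, 10889 and 8084 in het and 9382, 10240 and 11737 in KO (0.089, SE 0.20). Npat, which activates clustered histone genes, had a log2 fold change of -0.16 (SE 0.26). Sympk and Nfyb, a subunit of NF-Y, had values of -0.77 (SE 0.33) and 0.49 (SE 0.21), with limma adjusted p-values of 0.691 and 0.690. Of 21 histone chaperones tested, 0 were called and the median was -0.11.

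No S-phase or cell cycle gene was called. Of 30 listed genes, all were tested, 0 were called, 0 had an unadjusted p under 0.05, and the median log2 fold change was -0.042. Over all tested genes, 0.431% were called higher and 0.0423% lower, and 4.42% and 2.44% were at that unadjusted p. The values were -0.072 (SE 0.47) for Mki67, 0.15 (SE 0.20) for Top2a, 0.18 (SE 0.23) for Pcna, -0.40 (SE 0.36) for Ccna2, -0.019 (SE 0.26) for Ccne1 and 0.32 (SE 0.26) for Ccne2. KO library 2 was the highest of the 6 libraries for 19 of the 30, while for the 38 histone members KO libraries 1 and 2 were each highest for 10. KO library 3 read 0 for 8 histone members, more than any other library.

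Outside the clusters, 13 replication-independent histone genes were tested, 0 were called higher (0.431% of all tested genes were) and 1 lower (0.0423% were). H3f3c, a gene of the H3.3 family, read 2263, 2684 and 2769 in het and 778, 845 and 752 in KO, and fell (log2 fold change -1.70, SE 0.21; limma adjusted p = 0.00942). The call was lost without KO library 1 (0.0725) and without KO library 3 (0.0603). Its windows are 73.8% shared with other genes, so the split of its reads is uncertain. H3f3a, an H3.3 gene, had a log2 fold change of 0.45 (SE 0.18) and H3f3b 0.43 (SE 0.34), and H1f0, the linker gene of non-dividing cells, -0.88 (SE 0.30; limma adjusted p = 0.493). None of these 3 was called.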

How the data were processed

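RNA-seq libraries were made from germ cells with a SMART-seq v4 low-input kit and a TruSeq kit, per the labels' protocols. The submitters' processing notes name bcl2fastq 2.20, cutadapt 1.18, HISAT2 2.1.0, featureCounts 1.5.2, DESeq2 1.26.0 and the builds mm10 and GRCm38, without their roles; strand and multiple-match handling are not given in the sources used here. The deposited values are a signal. For genes the authors divided read counts by a DESeq2 size factor, per the name of the deposited table. The deposited TE values are not whole but are whole multiples of a step per column, as counts divided by a factor per library would be; the method of that scaling is not given in the sources used here, and the stage of the TE columns was taken from their table's name. Whole reads were recovered from the steps in each column (100% within 0.01). GENCODE M21 matched 35560 of 35666 genes. Of 70 members, 61 matched a RefSeq promoter.

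The main test was limma 3.58.1 in R 4.3.3 (trended, two-sided) on log2(value + 1) for features with a mean of at least 10, Benjamini-Hochberg over all. Alternatives were edgeR 4.0.16 with its quasi-likelihood test and DESeq2 1.42.0 on recovered reads, other pseudocounts, filters, scalings, a replicate block, and leaving out libraries. The limma, edgeR and DESeq2 steps were checked on simulated data. That check gave every gene the same small spread between libraries. It changed, by large folds, only genes with means above those of most members. It therefore does not show how well changes of low or more variable members are found. Named genes were the testis variants, members called or with an unadjusted p under 0.05, the 10 with the highest means, the highest and lowest tested of each type, and those nearest the minimum; from other lists, genes with an unadjusted p under 0.05, and Slbp, Npat, Mki67, Top2a, Pcna, Ccna2, Ccne1, Ccne2, H3f3b and H1f0. Lists of myoid, endothelial, and macrophage and blood markers (3, 3 and 7 genes tested) had 0 called, as had the 10 germ cell markers. Rnu7, Hjurp, H2afx and Rrm2 were not analysed here. Hist1h4c, Hist4h4, Hist1h1a, Hist1h2ab and Hist1h2bj fall outside this rule and were chosen after their values were seen. The members and lists were chosen with earlier results of these data known.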

Additional observations from a re-analysis of the deposited data

How the results depend on the processing

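Members called higher numbered 1, with 3 by DESeq2, 0 without the trend in limma's variance, and 0 to 1 with a library left out; 0 were called lower in every alternative. Genes called higher numbered 112 in all, with 400 by DESeq2, 70 and 177 with pseudocounts of 0.1 and 10, and 15 to 107 with a library left out. Genes called lower numbered 11, with 65 by DESeq2, 3 without the trend, 5 with a pseudocount of 0.1 and 1 to 7 with a library left out. Deviations of same-numbered het and KO libraries correlated at 0.138, -0.163 and -0.044, and those of differently numbered libraries at -0.200 to 0.206. With 3 libraries per group, these values cannot decide whether the replicate numbers pair the samples. With the replicate block, limma called 64 genes higher and 5 lower and edgeR 38 and 0, and Hist1h2bc stayed called by both (adjusted p = 0.0166 and 0.0387); H3f3c was not called by edgeR with the block (0.0534). Log2 fold changes of 6 uncalled members turned sign in 9 comparisons that left out a library. Their ranges over the libraries left out were -0.093 to 0.28 for Hist1h4d, -1.54 to 0.29 for Hist1h2ae, -0.039 to 0.28 for Hist1h2be, -0.10 to 0.66 for Hist1h2ag (also -0.0076), -0.46 to 1.73 for Hist1h3f, and -1.22 to 0.62 for Hist1h3e (also 0.12 and 0.015). The causes were not tested. Over 27 named genes, 431 of 449 comparisons kept direction and side of the threshold. Ratios of the type sums moved by less than their spread in every alternative, though H3 went from 0.83 to as low as 0.60 and as high as 1.32. The H1 ratio went from 1.49 to as high as 2.79 and fell with some other libraries left out. No TE copy near a listed member was called in any alternative. Low counts limit what can be seen for the 15 listed but untested members.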
